A study of Mus musculus with 1016 samples.

Results

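Single-cell Repli-seq sequences the DNA of single cells in S phase and records, for every 50 kb bin of the genome, whether that cell has already copied it. The replication of 8 mouse genes known for their work in the oocyte was followed here through preimplantation development: *Figla*, *Nobox*, *Gdf9*, *Zp3*, *Mos*, *Zar1*, *Pabpc1l* and *Nlrp5*, which are 8 of 20807 protein-coding genes on chromosomes 1 to 19. The rule that names them uses no measured value, but the members were chosen with earlier results of these data known. The bins that overlap each gene were read in all 14 groups of cells, together with 0.3 Mb on either side.

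The natural embryos were of the cross (C57BL/6J x CBA) x DBA/2J, were cultured from the zygote and are timed in hours after injection of human chorionic gonadotropin (hCG). They gave 66 zygotes (20 to 26 h), 63 cells of 2-cell embryos (32 to 40 h), 55 of 4-cell embryos (50 to 56 h), 56 of 8-cell embryos (66 to 72 h), 40 of 16-cell embryos (77 to 80 h), 47 of morulae (90 to 96 h) and 70 of the inner cell mass (ICM, 96 to 104 h). In vitro fertilization (IVF) of the same cross gave 57 zygotes, collected from 5.5 h after insemination on. Oocytes of (C57BL/6J x CBA)F1 females activated with 10 mM strontium for 2 h gave 57 parthenotes, which carry no paternal genome, 5.5 to 12 h after activation. Zygotes opened by micromanipulation at 21 to 25 h after hCG gave 21 maternal pronuclei, labelled (C57BL/6J x CBA)F1, and 17 paternal pronuclei, labelled DBA/2J. The treated groups were 2-cell embryos of the natural cross: 42 cells kept in 0.1 mg/mL α-amanitin from 17 h (collected at 34 to 39 h), 67 cells kept in 100 µM DRB from 17 h (34 to 40 h) and 56 cells of zygotes injected with 2 µg/µL *Kdm5b* mRNA at 18 h (34 to 40 h). Both drugs act on transcription by RNA polymerase II, but not alike. In the paper α-amanitin inhibits transcription fully, also through degradation of the polymerase, while DRB inhibits elongation. KDM5B is a demethylase that removes methyl groups from lysine 4 of histone H3. The 2-cell group set beside the injected embryos was not injected.

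Mammalian oocytes build up RNA and proteins while they grow, and the embryo lives on this store until its own genome is switched on. FIGLA and NOBOX are transcription factors of the early follicle, GDF9 is a growth factor that the oocyte sends to the follicle cells around it, ZP3 is a glycoprotein of the zona pellucida to which sperm bind, and MOS is a kinase that holds the mature egg in meiosis. ZAR1, PABPC1L and NLRP5 act on stored RNA or are needed from the egg for the first cleavages. In most cells the order in which the genome is copied follows chromatin: active, gene-rich stretches are copied early in S phase and silent ones late.

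The sequences just upstream of 4 of these genes are printed here because their bins carry the main contrasts described below. *Zp3* and *Pabpc1l* were replicated in fewer cells of IVF zygotes. *Nobox* was late at most stages, and *Nlrp5* had the lowest shares of all where it was read. The printed stretches are RefSeq sequences of GRCm38.p6, written 5′ to 3′ on the strand of the gene. They end before the RefSeq start or, for *Zp3*, at the last base outside the annotated gene. The capitals mark each CANNTG, the E-box that FIGLA is known to bind in zona pellucida gene promoters, which reads alike on both strands. *Zp3* is at chr5:135979855-135980098 on the plus strand, *Pabpc1l* at chr2:164024974-164025223 on the plus strand, *Nobox* at chr6:43309555-43309804 on the minus strand and *Nlrp5* at chr7:23385639-23385888 on the plus strand.
Zp3: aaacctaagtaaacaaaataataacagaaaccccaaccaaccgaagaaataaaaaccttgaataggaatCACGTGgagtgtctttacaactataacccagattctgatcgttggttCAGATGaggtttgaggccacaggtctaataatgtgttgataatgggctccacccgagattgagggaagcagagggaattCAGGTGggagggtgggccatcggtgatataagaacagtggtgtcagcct
Pabpc1l: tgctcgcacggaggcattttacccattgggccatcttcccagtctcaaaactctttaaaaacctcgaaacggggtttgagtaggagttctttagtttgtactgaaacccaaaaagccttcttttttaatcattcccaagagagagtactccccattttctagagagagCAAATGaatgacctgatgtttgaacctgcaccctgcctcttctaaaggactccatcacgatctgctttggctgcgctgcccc
Nobox: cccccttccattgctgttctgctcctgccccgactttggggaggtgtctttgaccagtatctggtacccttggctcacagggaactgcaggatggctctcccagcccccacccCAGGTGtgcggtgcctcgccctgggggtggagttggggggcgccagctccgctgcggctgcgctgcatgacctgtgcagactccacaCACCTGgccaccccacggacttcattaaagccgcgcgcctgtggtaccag
Nlrp5: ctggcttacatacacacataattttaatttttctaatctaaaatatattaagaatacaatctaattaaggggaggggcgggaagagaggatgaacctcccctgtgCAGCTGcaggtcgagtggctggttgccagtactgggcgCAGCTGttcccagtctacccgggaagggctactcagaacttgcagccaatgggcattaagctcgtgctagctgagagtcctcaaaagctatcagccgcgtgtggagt

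RefSeq promoters were matched for 6 of the 8 genes. In the 250 bases before the RefSeq start, *Zp3* held 3 E-boxes, *Figla*, *Nobox*, *Zar1* and *Nlrp5* held 2 each and *Pabpc1l* held 1. The first of *Zp3* lies 181 bases before its RefSeq start, which is further downstream than the end of the stretch printed above. Of 32851 mouse promoters of the same length, 66.2% held at least 1, with a median of 1, so that most promoters carry this short motif. TAATTG, a core sequence that NOBOX is known to bind, searched on both strands, was in none of the 6 windows and in 7.17% of all promoters. The windows differed in base composition, from 43.6% G and C in *Zp3* to 67.2% in *Figla*, beside a median of 52.4%. A promoter of this size is a small piece of a 50 kb bin, and the timing values below belong to the bin.

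The genes lie in unlike surroundings. *Zp3* (chromosome 5, 135980099 to 135988624) had 49.9% G and C over the gene and 0.3 Mb on either side, more than 94% of protein-coding genes, and 17 other genes lay there. *Gdf9* (chromosome 11, 53431023 to 53437904) lay beside *Il4*, *Il13*, *Il5* and *Rad50* at 45.2% G and C, *Figla* (chromosome 6, 86016171 to 86020996) at 45.7% and *Pabpc1l* (chromosome 2, 164025450 to 164050538) at 46.2%, all above the median of 44.4%. *Zar1* (chromosome 5, 72576806 to 72581254) at 42.6% and *Mos* (chromosome 4, 3870657 to 3872105) at 41.3% were below it. *Mos* lies only 3.87 Mb from the centromeric end of its chromosome. *Nobox* (chromosome 6, 43303674 to 43309554) sits in a row of olfactory receptor genes at 39.4%, higher than only 9.51% of genes, and *Nlrp5* (chromosome 7, 23385889 to 23441922) among vomeronasal receptor genes of the *Vmn1r* family and *Nlrp4e* at 40.6%, higher than 16.1% of genes.

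A cell counted as replicated at a gene when most of its called bins over the gene were in the replicated state, and each value below is the share of such cells in a group with its exact 95% binomial interval. A zygote or parthenote is a whole embryo, and at later stages the labels do not tie a cell to its embryo; for no group do they name the animals or the collection a cell came from. Each group was therefore treated as a single sample of pooled cells, the intervals cover counting error only, and no test between groups was made. Because groups were caught at different points of S phase, each share was also set against the genome-wide share, the mean share over all bins in the same cells, which ran from 40.8% in 4-cell to 61.1% in IVF zygotes. A difference between groups is the difference of these relative shares, called earlier or later from 20 percentage points on. The genome-wide share also differed between collection hours within a group. At 77 h the 9 cells of 16-cell embryos had 33.4%, against 61.5% in the 31 cells of 80 h, and small sets went further: 23.9% in 3 zygotes of 22 h and 69.9% in 4 cells of 4-cell embryos at 53 h. Some results are also given without the 16-cell cells of 77 h or the 11 cells of 8-cell embryos at 72 h (42.9%). No cell was identical to another in its states. The depth of reads is not in these binary tables.

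At the 7 natural stages *Gdf9* was most often replicated at 6 of them and *Nobox* least often of the 7 genes measured throughout. In zygotes the share ran from 75.8% at *Gdf9* through 69.7% at *Zar1*, 60.6% at *Figla*, 60% at *Pabpc1l*, 54.5% at *Mos*, 53% at *Zp3* and 39.4% at *Nobox* to 6.25% at *Nlrp5*. Of the 7 pairs of neighbours in that order, 6 had overlapping intervals, and only the step from *Nobox* to *Nlrp5* did not. The range among the 7 genes was 36.4 points in zygotes, 39.7 in 2-cell, 56.1 in 4-cell, 39.3 in 8-cell, 32.5 in 16-cell, 29.8 in morulae and 28.6 in the ICM, so that 4-cell was the widest. The median over the members was at most 6 points from the median over all protein-coding genes at each of these stages: 57.3% beside 59.1% in zygotes, 72.5% beside 72.5% in 16-cell and 78.7% beside 78.7% in morulae. As a set the oocyte genes were thus near the middle of the genome's genes, with single genes far from it on both sides.

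**Figure D1:**
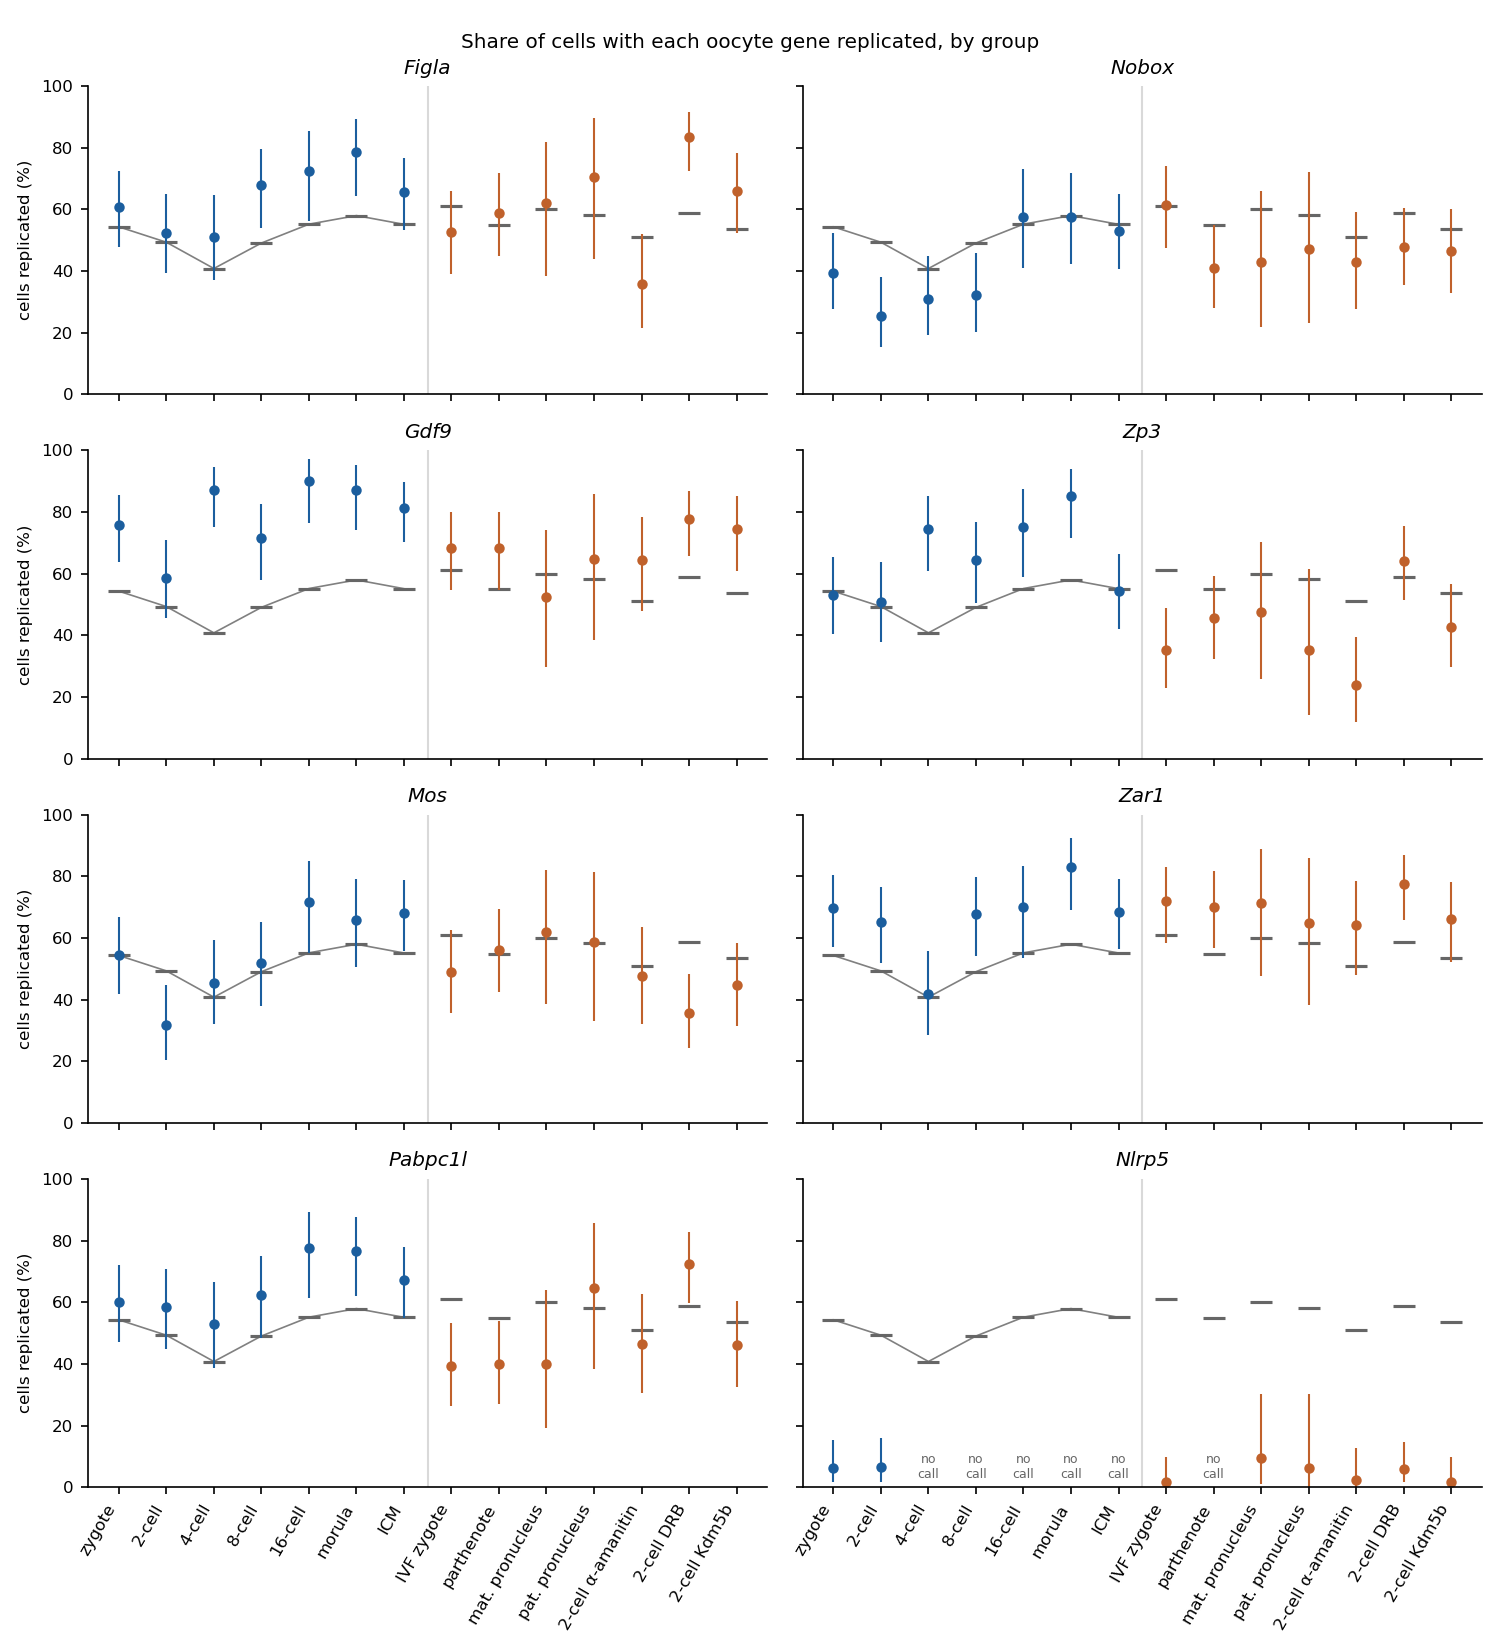
Share of cells with each gene replicated (y axis, percent; points) with exact 95% binomial intervals (bars) in the 14 groups (x axis; natural stages blue, other groups orange); grey dashes give the genome-wide share of the same cells. *Gdf9* is above the dash in 13 of 14 groups and *Zar1* in 14 of 14, while *Nlrp5* stays under 10% in its 8 measured groups and has no call in 6.

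*Figla*, the factor that switches on the zona pellucida genes in the oocyte, was close to the genome in the first stages and above it later. It was replicated in 60.6% of zygotes, 52.4% of 2-cell, 50.9% of 4-cell, 67.9% of 8-cell, 72.5% of 16-cell, 78.7% of morula and 65.7% of ICM cells. The interval lay wholly above the genome-wide share in 8-cell, 16-cell and morula, as in 2-cell embryos with DRB. Most protein-coding genes lay above it at these stages too: 76% in 8-cell, 80% in 16-cell and 83.1% in morulae. Ranked among them, the share of *Figla* was at percentile 76 in 8-cell, 51.1 in 16-cell and 48.2 in morulae. In the other groups its share was 52.6% in IVF zygotes, 58.9% in parthenotes, 61.9% in maternal and 70.6% in paternal pronuclei, 35.7% with α-amanitin, 83.6% with DRB and 66.1% with *Kdm5b*. Both its extremes were thus in drug-treated 2-cell embryos, each with another drug: 15 of 42 cells with α-amanitin (interval 21.6 to 52%) and 56 of 67 with DRB (72.5 to 91.5%). These intervals do not overlap.

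*Nobox*, needed for the growth of follicles, was the lowest of the 7 genes at every natural stage. Its share was 39.4% in zygotes, 25.4% in 2-cell, 30.9% in 4-cell and 32.1% in 8-cell, then 57.5% in 16-cell, 57.4% in morulae and 52.9% in the ICM. The first 4 values all lie below the last 3, and the interval was wholly below the genome-wide share in zygotes, 2-cell and 8-cell. Without the cells of 77 h the 16-cell value was 67.7%. In the other groups it was 61.4% in IVF zygotes, its highest value, 41.1% in parthenotes, 42.9% in maternal and 47.1% in paternal pronuclei, 42.9% with α-amanitin, 47.8% with DRB and 46.4% with *Kdm5b*.

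*Gdf9*, the growth factor, was replicated in 75.8% of zygotes, 58.7% of 2-cell, 87% of 4-cell, 71.4% of 8-cell, 90% of 16-cell, 87.2% of morula and 81.4% of ICM cells. Among protein-coding genes its share was at percentile 95.6 in zygotes and in 4-cell, 98.7 in 16-cell, 98.6 in the ICM, 86.5 in 8-cell and 80.1 in morulae. In 2-cell, its lowest stage, it was at percentile 67.4. The interval was wholly above the genome-wide share at 6 of 7 stages, all but 2-cell. Outside the natural stages it was 68.4% in IVF zygotes, 68.4% in parthenotes, 52.4% in maternal and 64.7% in paternal pronuclei, 64.3% with α-amanitin, 77.6% with DRB and 74.5% with *Kdm5b*. Maternal pronuclei were the single group in which it was under the genome-wide share, at −7.59 points, with an interval of 29.8 to 74.3%.

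*Zp3*, the egg coat gene, varied the most widely over the 14 groups. Its share was 53% in zygotes, 50.8% in 2-cell, 74.5% in 4-cell, 64.3% in 8-cell, 75% in 16-cell, 85.1% in morulae and 54.3% in the ICM. The stages from 4-cell to morula were high, each with an interval above the genome-wide share, and zygotes, 2-cell and ICM were at the genome-wide share. Among protein-coding genes the share was at percentile 78.4 in 4-cell, 64.5 in 8-cell, 59.9 in 16-cell and 71.9 in morulae. Without the cells of 77 h, of which 1 in 9 had replicated it, the 16-cell value was 93.5%. In the other groups *Zp3* was below the genome-wide share in all but the group with DRB: 35.1% in IVF zygotes, 45.6% in parthenotes, 47.6% in maternal and 35.3% in paternal pronuclei, 23.8% with α-amanitin and 42.9% with *Kdm5b*. With DRB it was 64.2%, 5.36 points above. In IVF zygotes (22.9 to 48.9%) and with α-amanitin (12.1 to 39.5%) the interval was wholly below the genome-wide share.

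*Mos*, the meiotic kinase, was replicated in 54.5% of zygotes, 31.7% of 2-cell, 45.5% of 4-cell, 51.8% of 8-cell, 71.8% of 16-cell, 66% of morula and 68.1% of ICM cells. The 2-cell stage was its lowest, with an interval (20.6 to 44.7%) below the genome-wide share. The 3 last stages had its highest shares. Among protein-coding genes these were at percentile 47.4 in 16-cell, 23.6 in morulae and 70.5 in the ICM. The earlier shares were at percentile 39.8 in zygotes, 14.8 in 2-cell, 38.9 in 4-cell and 29.2 in 8-cell. Ranked in this way, morulae were thus above 2-cell only. Elsewhere the share was 49.1% in IVF zygotes, 56.1% in parthenotes, 61.9% in maternal and 58.8% in paternal pronuclei. It was 47.6% with α-amanitin, 35.8% with DRB and 44.6% with *Kdm5b*. With DRB its interval (24.5 to 48.5%) was below the genome-wide share of those cells.

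*Zar1*, named for its role at the zygote arrest of mutants, was above the genome-wide share in 14 of 14 groups. Its share was 69.7% in zygotes, 65.1% in 2-cell, 41.8% in 4-cell, 67.9% in 8-cell, 70% in 16-cell, 83% in morulae and 68.6% in the ICM. The 4-cell stage, 1.01 points above the genome, stood out as low, and the others were 13.4 to 25.0 points above it. Among protein-coding genes the share ran from percentile 34.5 in 4-cell to 84.1 in 2-cell, with 43.2 in 16-cell and 63.3 in morulae. In the other groups it was 71.9% in IVF zygotes, 70.2% in parthenotes, 71.4% in maternal and 64.7% in paternal pronuclei, 64.3% with α-amanitin, 77.6% with DRB and 66.1% with *Kdm5b*. ICM cells of 96 to 100 h had replicated it in 81.8% of 33 cells and the later ones in 56.8% of 37, at genome-wide shares of 60.6% and 50.2%.

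*Pabpc1l*, a poly(A)-binding protein of the oocyte, spans 2 bins. It was replicated in 60% of zygotes, 58.3% of 2-cell, 52.8% of 4-cell, 62.5% of 8-cell, 77.5% of 16-cell, 76.6% of morula and 67.1% of ICM cells, above the genome-wide share at all 7 stages and with the interval above it in 16-cell and morulae. Among protein-coding genes it was at percentile 68.3 in 16-cell and 42 in morulae. Outside the natural stages it was 39.3% in IVF zygotes, 40% in parthenotes, 40% in maternal and 64.7% in paternal pronuclei, 46.3% with α-amanitin, 72.3% with DRB and 46.3% with *Kdm5b*. IVF zygotes (26.5 to 53.2%) and parthenotes (27 to 54.1%) had intervals below the genome-wide share.

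*Nlrp5*, also known as *Mater*, a part of the subcortical maternal complex of the egg, could be read in 8 groups. None of its bins was called in any 4-cell, 8-cell, 16-cell, morula, ICM or parthenote cell, and in the other groups the 5 most upstream bins of its window had no call. Where it was read it was almost always unreplicated: in 4 of 64 zygotes (6.25%), 4 of 61 2-cell cells (6.56%), 1 of 55 IVF zygotes (1.82%), 2 of 21 maternal (9.52%) and 1 of 16 paternal pronuclei (6.25%), 1 of 41 cells with α-amanitin (2.44%), 4 of 66 with DRB (6.06%) and 1 of 54 with *Kdm5b* (1.85%). The 8 intervals overlap, with upper ends from 9.72 to 30.4%, and all lie below the genome-wide share. At most 1.43% of protein-coding genes had a lower share in any of these groups. The authors mask bins of extreme coverage or low mappability, and part or all of this window was missing in every group. Whether the low shares of the bins that remain come from late replication or from poor mapping was not tested.

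From zygote to 2-cell no member passed 20 points, beside a background of 0.636% of protein-coding genes earlier and 1.21% later. The largest difference was at *Mos*, −17.8 ± 17.4 points. Here and below ± combines the counting half-widths of the 2 shares at the gene and leaves out the error of the genome-wide shares. *Gdf9* differed by −12.0 points. *Nlrp5* differed by 5.31, nearly all of it from the subtracted genome-wide share, since its own share differed by 0.307 points.

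From 2-cell to 4-cell, 3 of 7 members were earlier and none later, where 35.2% of all genes were earlier and 2.8% later. *Gdf9* was 58.7% in 2-cell and 87% in 4-cell, which is 36.8 ± 16.0 points relative to the genome. *Zp3* was 50.8% and 74.5%, 32.3 ± 17.7 points, and *Mos* 31.7% and 45.5%, 22.2 ± 18.3 points. *Zar1* went the other way without reaching the threshold, by −14.7 points. The median over the 7 genes was 14 points beside 11.4 over all genes. These 4-cell values depended on the part of S phase: with cells of scores 40 to 60 alone the differences were 16.8 points at *Gdf9*, 4.01 at *Zp3* and 50.4 at *Mos*.

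From 4-cell to 8-cell 1 member was later, *Gdf9*, by −23.9 ± 15.8 points (−19.0 without the 8-cell cells of 72 h), in a background of 17% later and 3.28% earlier. *Zp3* differed by −18.5 ± 17.9 points and *Zar1* by 17.8. From 8-cell to 16-cell none of the 7 passed 20 points, beside 2.42% of all genes earlier and 0.876% later, with *Nobox* nearest at 19.2 points. The median over the 7 genes there was 8.89 points, 1.78 without the 8-cell cells of 72 h and 16.1 without the 16-cell cells of 77 h. From 16-cell to morula none passed it either (1.69% earlier and 0.372% later), and differences ran from −8.64 points at *Mos* to 10.2 at *Zar1*.

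From morula to ICM *Zp3* was the 1 member later, 85.1% and 54.3%, −28.0 ± 16.4 points, where 28.3% of all genes were later and 2.6% earlier. With ICM cells of 96 to 100 h alone it remained past the threshold. *Mos* was the 1 gene with a positive difference, 5.01 points. Set directly against 2-cell, morulae had higher relative shares at all 7 genes, by 9.24 to 25.7 points, and 3 were earlier: *Zp3* (25.7 ± 17.0), *Mos* (25.6 ± 18.6) and *Nobox* (23.4 ± 18.6). The background was 39.2% earlier and 4.45% later, so that 3 of 7 is near the share of all genes, and the median over the members, 19.8 points, was near that over all genes, 16.7. At scores 40 to 60 alone, with 11 morula cells, *Nobox* was at −4.13 points, *Zp3* at 28.5 and *Mos* at 51.7.

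**Figure D2:**
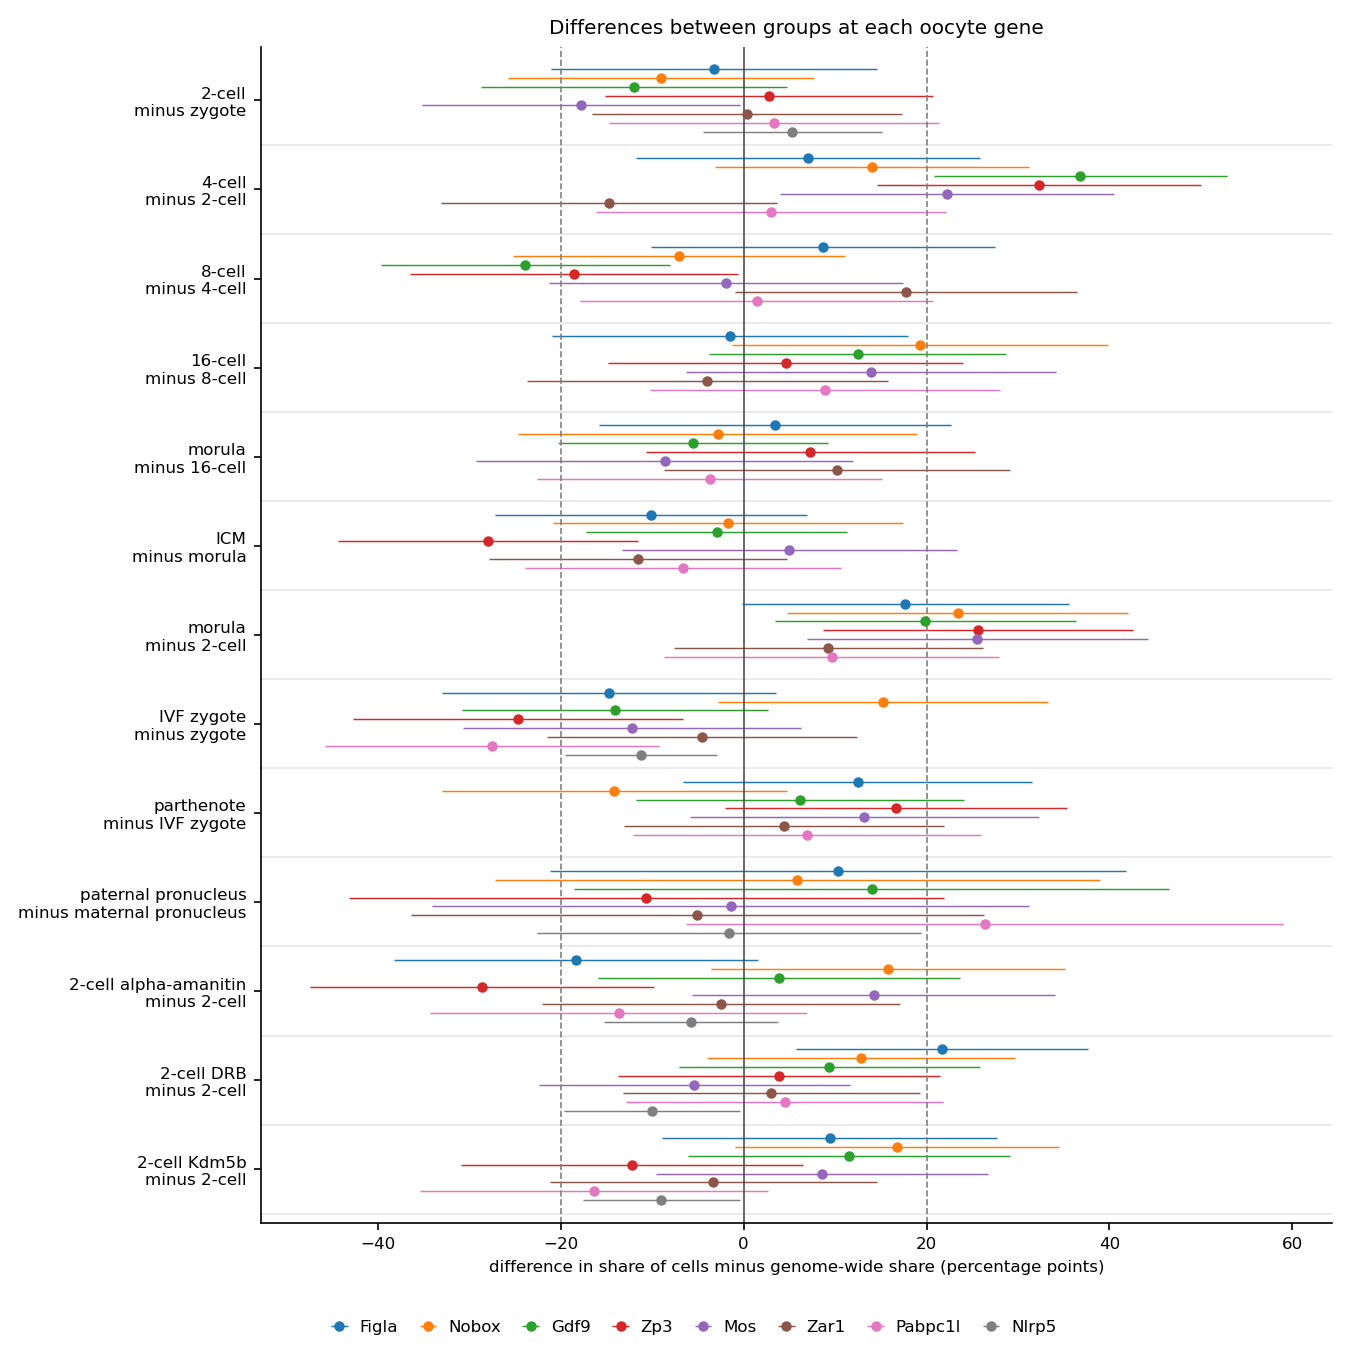
Difference between the 2 groups of each comparison (rows) in the share of cells minus the genome-wide share (x axis, percentage points) at each gene (colours); bars are 95% counting half-widths and dashed lines mark 20 points. Of 97 differences 13 pass a dashed line, among them *Gdf9*, *Zp3* and *Mos* to the right from 2-cell to 4-cell and *Zp3* and *Pabpc1l* to the left in IVF zygotes.

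IVF zygotes had lower relative shares than natural zygotes at 7 of 8 genes, and 2 were later where 14.3% of all genes were later and 0.792% earlier. *Pabpc1l* was 60% in zygotes and 39.3% in IVF zygotes, −27.5 ± 18.3 points, and *Zp3* 53% and 35.1%, −24.7 ± 18.1 points. *Nobox* alone was higher, by 15.2 points. The median over the 8 genes was −13.1 points beside −6.21 over all genes. These groups differ in how hours were counted and in the moment of fertilization, which cannot be told apart from the way of fertilization.

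Parthenotes and IVF zygotes differed by less than 20 points at all 7 genes read in both (background 6.5% earlier and 1.11% later), from −14.2 points at *Nobox* to 16.7 at *Zp3*. With scores 40 to 60 alone, 20 cells each, *Figla* was at 43.7 and *Zp3* at 35.6 points. Between paternal and maternal pronuclei 1 of 8 was earlier, *Pabpc1l*, 8 of 20 maternal and 11 of 17 paternal pronuclei, 26.4 ± 32.6 points, beside 10.4% of all genes earlier and 5.43% later. That difference was smaller than its counting error, as were those of the other 7 genes.

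With α-amanitin, *Zp3* was the 1 gene past the threshold, later by −28.6 ± 18.8 points (50.8% in untreated 2-cell and 23.8% treated), where 7.26% of all genes were later and 1.41% earlier. The difference was widest in cells far through S phase: at scores 60 to 90, 12 of 14 untreated cells (85.7%) and 2 of 13 treated ones (15.4%) had replicated it. At scores 40 to 60 the shares were 55.2% of 29 and 50% of 14, a relative difference of −5.71 points. At 10 to 40 they were 20% of 20 and 6.67% of 15. In the treated cells the share was thus lower at scores 60 to 90 than at 40 to 60, and the reason was not tested. *Figla* was next at −18.3 ± 19.9 points, and *Nobox* and *Mos* were higher by 15.8 and 14.2 points. With DRB *Figla* was earlier by 21.7 ± 16.0 points (52.4% and 83.6%), beside 1.38% of all genes earlier and 2.26% later, and by 8.34 points at scores 40 to 60 alone. All treated groups are set against the same untreated 2-cell cells, which also enter the comparisons with zygotes, 4-cell and morulae, so the values are given side by side: *Zp3* differed by 3.89 points with DRB, and *Nlrp5* by −5.78 with α-amanitin and −9.99 ± 9.64 with DRB. Without the subtraction *Nlrp5* differed by −4.12 and −0.497 points. With *Kdm5b* mRNA no gene passed 20 points (1.02% of all genes earlier and 1.82% later), the extremes being *Nobox* at 16.7 and *Pabpc1l* at −16.3 points.

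Cells were next split by replication score, the percentage of the called genome that a cell had copied, into 10 to 40, 40 to 60 and 60 to 90. Over the 7 stages together the share at *Gdf9* was 62.2%, 78.5% and 91% in these parts of S phase. Most cells had copied it already in the first part at each stage but 2-cell (6 of 20, 30%), and 4-cell was highest there (23 of 27, 85.2%). *Nobox* was the opposite, at 15.1%, 34% and 72.4%. *Zp3* (46.2%, 57.6% and 85.1%), *Pabpc1l* (41.4%, 63.4% and 85%), *Figla* (35.3%, 63.2% and 88.1%), *Zar1* (33.6%, 67.4% and 94%) and *Mos* (29.4%, 47.9% and 84.3%) lay between. The first value of *Zp3* includes 25 of 27 4-cell cells (92.6%), while the other stages ran from 20% in 2-cell to 70% in morulae. *Nlrp5*, read in zygotes and 2-cell, was replicated in 0 of 35 cells of the first part (interval up to 10.0%), 2 of 51 of the middle and 6 of 39 of the last (15.4%). Over the 7 genes together the shares were 37.6%, 58.9% and 85.7%. In single morula cells of scores 60 to 90 the number of the 7 genes replicated ranged from 3 to 7 with a median of 7, and in 2-cell cells of scores 10 to 40 from 0 to 4 with a median of 2.

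In 4-cell embryos the order was unusual. *Zp3* had been copied in 25 of 27 cells of scores 10 to 40 (92.6%, interval 75.7 to 99.1%), 11 of 20 of scores 40 to 60 (55%) and 5 of 8 of scores 60 to 90 (62.5%), so that its share was lower in cells further through S phase. In 2-cell the same parts gave 20%, 55.2% and 85.7%. *Gdf9* in 4-cell was 85.2%, 85% and 100%. This was not particular to *Zp3*: in 4-cell 31.9% of all protein-coding genes had a lower share at scores 60 to 90 than at 10 to 40, against 0.486 to 10.1% of genes in the 11 other groups with at least 5 cells in both parts. The 4-cell group held 27 cells of low and 8 of high score. The states of 54 of the 55 4-cell cells correlated positively over bins with the mean share of the other natural stages (median r 0.371, lowest −0.0245). At scores 10 to 40 r was 0.204 to 0.589 in all 27. At scores 60 to 90 r was 0.00486 to 0.286. Neighbouring bins share the smoothing, so r is a description. Whether replicated and unreplicated states are swapped in some 4-cell cells was not tested. Nor was the part of this unusual order in the 4-cell shares and differences above.

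**Figure D3:**
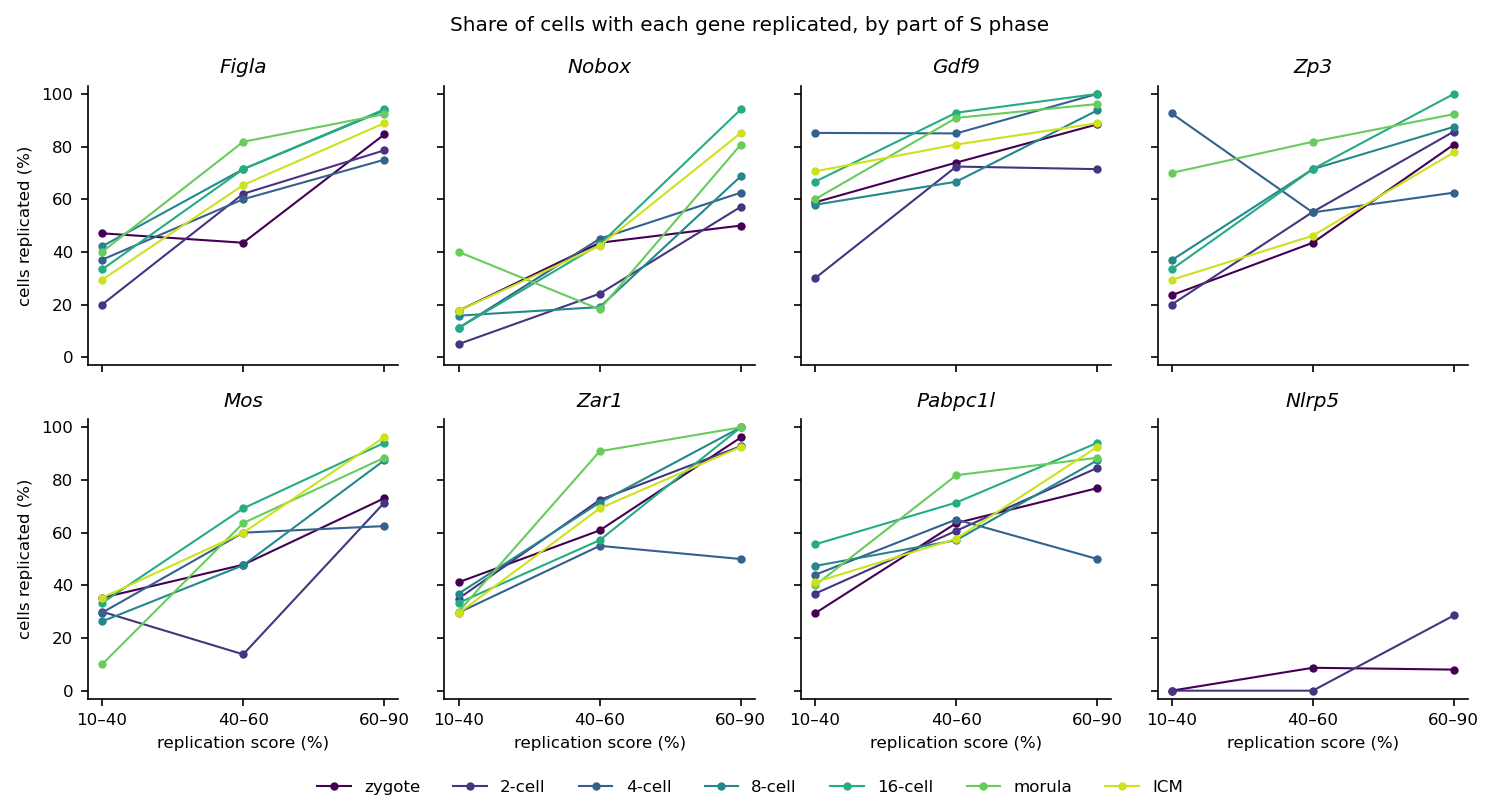
Share of cells replicated (y axis, percent) at each gene in cells with replication scores of 10 to 40, 40 to 60 and 60 to 90 (x axis), with a line for each natural stage. Lines climb in most panels; *Zp3* in 4-cell drops from 92.6% to 55%, and *Nlrp5* stays low, up to 28.6% in 2-cell cells of the highest scores.

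The bins of the 0.3 Mb on either side mostly had values near those of the gene. The authors' running median and segmentation join neighbouring bins, so a flat window does not tell a gene from its surroundings. At *Zp3* the bins of a window spanned from 4.26 points in morulae to 10.9 in 4-cell, less than the median window of all genes at all 7 stages (10.6 points in morulae and 18.2 in 4-cell). *Figla* and *Zar1* spanned only 3.57 points in 8-cell, percentile 1.32 among the windows of all genes. *Nobox* had the widest span of the 7 genes in 16-cell, morulae and the ICM. In 16-cell it ran from 37.5% at the left end of the window to 65% at 218 kb to the right of its centre, a span of 27.5 points at percentile 84.3. In morulae the bins ran from 38.3% to 59.6%. In *Mos* the highest bin was the one 296 kb to the left, on the side of the centromere, in 2-cell (41.3%), 4-cell (60%), 8-cell (67.9%), 16-cell (76.9%) and morulae (80.9%). In zygotes (60.6%) and the ICM (69.6%) the highest was 304 kb to the right, and in the ICM the bin 296 kb to the left was the lowest (65.2%). *Nlrp5* was low over its whole called window, 4.55 to 12.1% in zygotes and 4.76 to 11.1% in 2-cell.

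**Figure D4:**
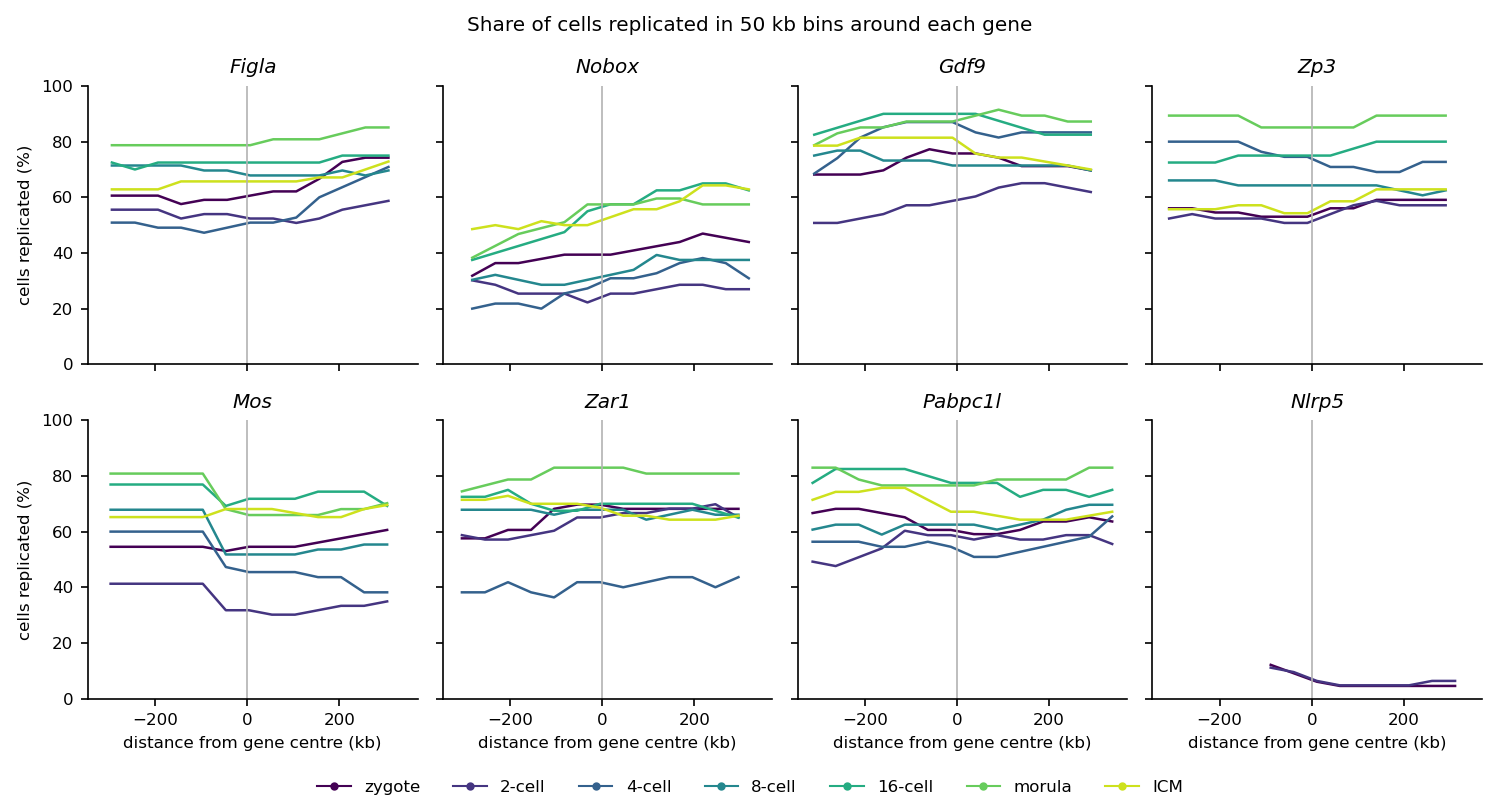
Share of cells replicated (y axis, percent) in 50 kb bins by distance from the centre of each gene (x axis, kb) for the natural stages (lines). *Gdf9* reaches 87% in 4-cell, *Nobox* slopes upward to the right in 16-cell (37.5 to 65%), and *Nlrp5* has calls in zygotes and 2-cell only.

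For context, 46 other genes known from the oocyte were listed, 45 of which matched a gene on chromosomes 1 to 19 and 41 of which had calls in enough cells of all groups. Over the 7 stages 32 of the 41 lay above the genome-wide share on average, with a median of 11.4 points, beside 13.3 for the members and 11 for all protein-coding genes, 74.5% of which lay above it. The highest were *Bcl2l10* (27.4 points), a relative of the BCL2 proteins, and *Zar1l* (25.4), the relative of *Zar1*, near the 27.1 points of *Gdf9*. The other zona pellucida genes, *Zp2* (18.7) and *Zp1* (14.3), were close to *Zp3* (13.6), and each was just past the threshold from 2-cell to 4-cell, by 20.5 points at *Zp2* (57.1% and 69.1%) and 20.004 at *Zp1* (54% and 65.5%), where 35.2% of all genes were earlier. The lowest were *Nlrp9a* (−28.2) and *Nlrp4a* (−26.3), which lie close together on chromosome 7, had near-equal values and are not independent. Of the 5 NLRP genes measured throughout 4 were below the genome, *Nlrp9b* at −9.86 and *Nlrp14* at −2.66 as well, and *Nlrp4f* was above it at 7.57. Of the partners of NLRP5 in the subcortical maternal complex, *Ooep* (22.5) and *Khdc3* (22.5) were high and *Tle6* (−2.93) and *Padi6* (−12.8) were not.

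Between stages the listed genes had 17 of 41 earlier and 2 later from 2-cell to 4-cell (35.2% and 2.8% of all genes), led by *Rfpl4* (67.7 points) and *Gpr3* (57.7), the receptor that keeps the oocyte in meiotic arrest, with *Sohlh2* (−35.1) and *Dazl* (−24.7) later. From 4-cell to 8-cell 6 of 41 were later (17% of all genes), *Gpr3* (−40.2) and *Rfpl4* (−36.4) the furthest. *Zfp57* was earlier (20.8), beside 3.28% of all genes. From morula to ICM 9 of 43 were later (28.3% of all genes), led by *Astl* (−31.3) and *Tcl1* (−27.9), and none earlier (2.6% of all genes). From 2-cell to morula 17 of 43 were earlier (39.2% of all genes), led by *Nlrp9b* (45.1) and *Cd9* (33.1), and none later (4.45% of all genes). *Omt2a* and *Ooep*, which neighbour each other, had near-equal values and are not independent, as are *Oosp1*, *Oosp2* and *Oosp3*.

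**Figure D5:**
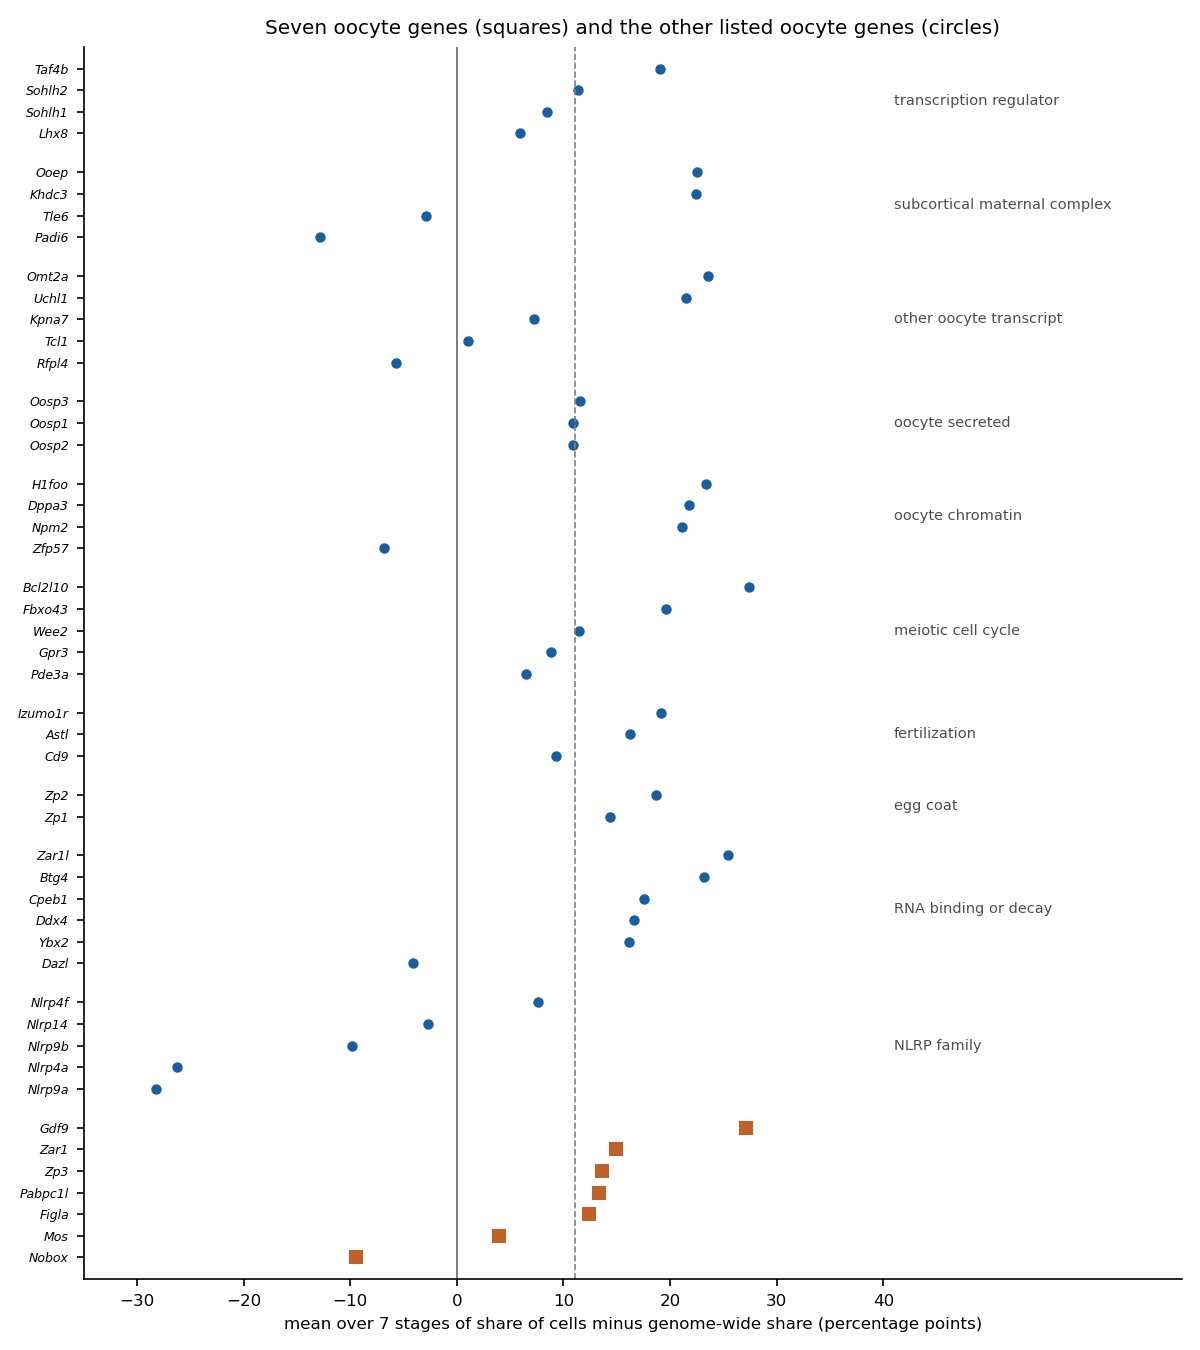
Mean over the 7 natural stages of the share of cells minus the genome-wide share (x axis, percentage points) for the 7 genes measured throughout (squares) and 41 other oocyte genes by role (circles); the dashed line is the median of all protein-coding genes, 11 points. *Gdf9* (27.1) and *Bcl2l10* (27.4) are at the right end, and *Nlrp9a* (−28.2) at the left.

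With α-amanitin 1 of 44 listed genes was earlier (1.41% of all genes), *Wee2* (22.2 points), a kinase that holds the oocyte in prophase. Later were 2 (7.26% of all genes), *Tcl1* (−35) and *Zar1l* (−28.6). With DRB *Taf4b* (22) was earlier (1.38% of all genes) and 4 of 44 were later (2.26% of all genes), *Nlrp2* (−30.2) and *Padi6* (−21.4) the furthest. Part of these values comes from the subtracted genome-wide share, 49.3% in 2-cell and 58.8% with DRB. The shares themselves were 54.8% and 86.4% at *Taf4b*, 22.2% and 1.49% at *Nlrp2*, and 23.8% and 11.9% at *Padi6*. With *Kdm5b* 2 of 44 were later (1.82% of all genes), *Tcl1* (−26.3) and *Zar1l* (−22.3), and none earlier (1.02%). In IVF zygotes 3 of 44 were later than in natural zygotes (14.3% of all genes), *Sohlh1* (−37.3) and *Ybx2* (−24.5) the furthest. In parthenotes 3 of 43 were earlier than in IVF zygotes (6.5% of all genes), *Ybx2* (32.5) and *Nlrp9b* (29.8) the furthest. There *Fbxo43* (−21.0) was later (1.11% of all genes). Between pronuclei 5 of 44 were earlier in the paternal, led by *Gpr3* (34.2) and *Cd9* (31.6), and 4 later, led by the *Oosp* genes (−31.5), beside 10.4% and 5.43% of all genes. The counting half-widths there were 31.3 to 33.1 points at the members other than *Nlrp5*, as large as most of these differences. From zygote to 2-cell, of 44 listed genes, *Dppa3* (20.3) was earlier and *Wee2* (−27.1) and *Pde3a* (−20.6) later, beside 0.636% and 1.21% of all genes. *Nlrp4f* (22.1) was the 1 listed gene of 43 past the threshold from 8-cell to 16-cell, beside 2.42% of all genes earlier and 0.876% later.

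The members were also compared with each other and with all genes over the groups. The members most alike were *Figla* and *Zar1*, whose shares differed by 8.64 points on average over the 14 groups, and those least alike over 14 groups were *Nobox* and *Gdf9*, at 28.4 points. Among protein-coding genes on other chromosomes, the one nearest to each member in mean absolute difference over the 14 groups was *Smim6* for *Zp3* (2.55 points), *Fbxo48* for *Zar1* (3.23), *Arf4* for *Gdf9* (3.34), *Dmbt1* for *Pabpc1l* (3.77), *D430042O09Rik* for *Figla* (3.97), *Hey1* for *Mos* (5.17) and *Mfap3l* for *Nobox* (5.26). For *Nlrp5* it was *Gm15446*, at 1.43 points over 8 groups. These are the smallest distances among all protein-coding genes and say nothing of the genes' function.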

How the data were processed

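Cells were isolated from mouse embryos, their DNA amplified and sequenced, and the authors deposited for each cell a binary state per bin, a kind of value other than counts or ratios: 1 (replicated), 0 (not replicated) or missing, over the autosomes of mm10 in 49264 bins, each 50 kb wide. Per the labels, reads were aligned with Bowtie2 2.3.5 and handled with SAMtools 1.9 and bedtools 2.29.0. The authors scaled counts within each stage, masked extreme bins, smoothed, segmented and split each cell into both states. Bins that are masked for a stage are missing in all its cells, and since smoothing joins neighbouring bins, nearby genes are not independent.

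Of 1016 labelled samples, 283 had no column, 733 had 1 each (0 columns were left unmapped) and 714, with a replication score of 10 to 90, were used. Gene positions were those of GENCODE vM21. A gene needed calls in 50% of the cells of both groups to enter the background. Ties between bins were left out. In the percentile of a share, genes of equal share were split evenly between lower and higher. Intervals are exact (Clopper-Pearson). Python 3.11.15, numpy 2.4.6, pandas 2.3.3, scipy 1.17.1 and matplotlib 3.10.9 were used, and the steps were tested on simulated data.

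The members, lists and comparisons were chosen with earlier results of these data known. All 8 members are named; of the 46 listed genes those named are the 2 highest and 2 lowest over the stages, up to 2 in each direction past 20 points in a comparison, and, chosen after their values were seen, *Zp1*, *Zp2*, the NLRP genes and the subcortical complex. Alternatives were RT averaged over 16 intervals of score (35 points wide, 4.33 apart), no subtraction of the genome-wide share, the gene and 0.3 Mb on either side, the mean state of bins, scores 20 to 80, leaving out the 52 of the 714 cells that failed in the study's table of reads (219 are not in it and were kept, so that it left the treated groups whole), sets of collection hours, pronuclei of numbers found in both groups, and, added after seeing the data, scores 40 to 60.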

Additional observations from a re-analysis of the deposited data

How the results depend on the processing

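The error of a median over genes was not computed, and its range over the alternatives is given instead. The median difference kept its sign in 9 of 13 comparisons: −6.42 to −0.922 points from zygote to 2-cell, 5.51 to 14.03 from 2-cell to 4-cell, 1.78 to 16.1 from 8-cell to 16-cell, −15.5 to −3.83 from morula to ICM, 18.6 to 28.5 from 2-cell to morula, −14.9 to −6.38 in IVF zygotes, 0.714 to 7.61 in parthenotes, −4.91 to −2.46 with α-amanitin and 1.70 to 13.7 with DRB. Its sign changed under at least 1 alternative from 4-cell to 8-cell (−9.53 to 6.33), from 16-cell to morula (−6.73 to 11.3), between pronuclei (−4.35 to 5.32) and with *Kdm5b* (−2.00 to 6.94). The paper processed both pronuclei of a zygote, but the differences and half-widths here treat them as independent. Pronuclei carry numbers that occur in both groups, but the labels do not say that a number marks 1 zygote. With the replicate block, only the 10 maternal and 10 paternal pronuclei of shared numbers, the median difference was −3.29 points against 2.22. Under the alternatives other than scores 40 to 60, 73 of 83 values of the 13 called differences stayed past 20 points and all 83 kept their sign; those that did not stay past it were *Zp3* (18.3) and *Mos* (15.2) from 2-cell to 4-cell, *Gdf9* from 4-cell to 8-cell (−18.7) and *Zp3* in IVF zygotes (−16.6) with RT over intervals, *Mos* (13.7), *Gdf9* (−15.6) and *Zp3* (−17.9) in the same comparisons without subtraction, *Mos* (18.1) and, from 2-cell to morula, *Nobox* (19.6) without the cells that failed in the table of reads, and *Gdf9* (−19.0) without the 8-cell cells of 72 h. At scores 40 to 60 alone, with 5 to 29 cells a group, 8 of the 13 stayed past 20 points, *Nobox* from 2-cell to morula was reversed (−4.13), and 21 of all 97 moved by more than their counting error, among them, of those not called, *Zp3* between pronuclei (−45.5), *Figla* (43.7) and *Zp3* (35.6) in parthenotes, *Zar1* from 16-cell to morula (34.6) and *Mos* with *Kdm5b* (33.6). Under the other alternatives 26 values of differences not called went past 20 points, 11 of them without subtraction. Over the 7 genes and stages the share at scores 60 to 90 was 83.2% when scores above 80 were left out, against 85.7%. That cut takes out the cells furthest through S phase. The causes of the shifts were not tested. Outside the pronuclei the counting half-width of a difference was 14.3 to 21.8 points for the 7 genes read in every group, and 31.3 to 33.1 points between pronuclei. Smaller differences could not be told from the counting error of the shares at these numbers of cells.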
